A study of Mus musculus with 3 samples.

Results

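Fabp5 (ENSMUSG00000027533) and Crabp2 (ENSMUSG00000004885), 2 of the 33696 genes counted, encode small cytosolic proteins of the intracellular lipid-binding family. They were chosen by symbol, with their levels, shares of positive cells and coexpressed genes in these libraries already known, so every value below is a description and none is tested. The counts came from intratumoral CD8+ T cells of the pmel line, mice that carry a transgenic T cell receptor for the melanoma antigen gp100. Thy1.1+ pmel T cells were cultured with gp100 peptide and cytokine, transferred into irradiated C57BL/6 mice bearing subcutaneous tumors of the mouse melanoma line B16F10, and recovered on day 18 after tumor injection by sorting live Thy1.1+CD8+ cells. The 3 libraries, 1 per group, were named for the cytokine: sIL-2, an engineered IL-2 with high affinity for IL-2Rβ, IL-2/21-Trikine, which joins sIL-2 to a binder of IL-21Rα, and sIL-2 + IL-21. By the methods, recipients of cells cultured with sIL-2 + IL-21 were then injected with sIL-2 alone, as were recipients of sIL-2 cells, and recipients of Trikine cells were injected with Trikine, all in the low-dose regimen. With 1 library per group, the intervals given are exact 95% intervals that cover counting error only, and differences between mice, sorts or captures cannot be told apart from differences between cytokines.

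Fatty acid-binding proteins carry long-chain fatty acids through the cytosol. Fabp5 has also been described as carrying retinoic acid. It is best known for delivering ligands to the nuclear receptor PPARδ and for its part in T cell lipid use. Crabp2 binds retinoic acid with high affinity and hands it to the retinoic acid receptor RARα, and has further been described as binding the RNA-stabilizing protein HuR, encoded by Elavl1, and cyclin D3, encoded by Ccnd3. Because both proteins can carry retinoic acid, the balance between them has been proposed to steer it toward PPARδ or RARα.

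After limits on UMIs (unique molecular identifiers, each a counted RNA molecule) and mitochondrial share, 30857 of 31026 barcodes were kept, with 7760, 13299 and 9798 cells and 130200802, 166772854 and 168041089 UMIs in the sIL-2, the IL-2/21-Trikine and the sIL-2 + IL-21 library, the order in which values are listed throughout. The median cell had 10254 to 14055.5 UMIs. The pairs of libraries shared 18 to 41 cell barcodes and none was found in all 3. The label of the cells held against their markers: Cd3e was at 601 to 724 CPM (UMIs scaled to a common total per library) and Cd8a at 232 to 372 CPM, whereas Cd4 was at 0.216 to 1.21 CPM. The 9 myeloid markers summed to 26.5, 26.6 and 12.9 CPM and the 5 melanoma markers to 6.24, 8.82 and 2.22 CPM, in that order. The 4 erythroid markers, all hemoglobin genes, summed to 68.7 CPM in sIL-2 against 0.120 and 0.476 CPM, so sIL-2 stood apart in this signal. A Hbb-bs UMI was found in 1.03% of sIL-2 cells. These genes led the low-depth cluster 10 described below. Over the 3 libraries, 0.104% of its 961 cells had UMIs of at least 2 of them. Ratios of Fabp5 without the myeloid-like and melanoma-like clusters are given below. The part of these other cells' RNA within the T cell barcodes, and of the hemoglobin signal, was not tested. The genome holds processed copies of Fabp5, and how reads matching several copies were counted was not given, so its counts are uncertain to that extent.

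With UMIs summed over all cells, the members ran in opposite orders across the libraries. Fabp5 had 9119 UMIs in sIL-2, 19454 in IL-2/21-Trikine and 33015 in sIL-2 + IL-21, or 70.0 CPM (68.6 to 71.5), 117 CPM (115 to 118) and 196 CPM (194 to 199). No intervals overlapped, so IL-2/21-Trikine lay between the other libraries. Crabp2 had 2872, 3070 and 1665 UMIs, or 22.1 CPM (21.3 to 22.9), 18.4 CPM (17.8 to 19.1) and 9.91 CPM (9.44 to 10.4). Its intervals did not overlap either, and its highest level was in the library where Fabp5 was lowest. This order of Crabp2 did not hold with the cluster make-up held equal, as described below.

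**Figure D1:**
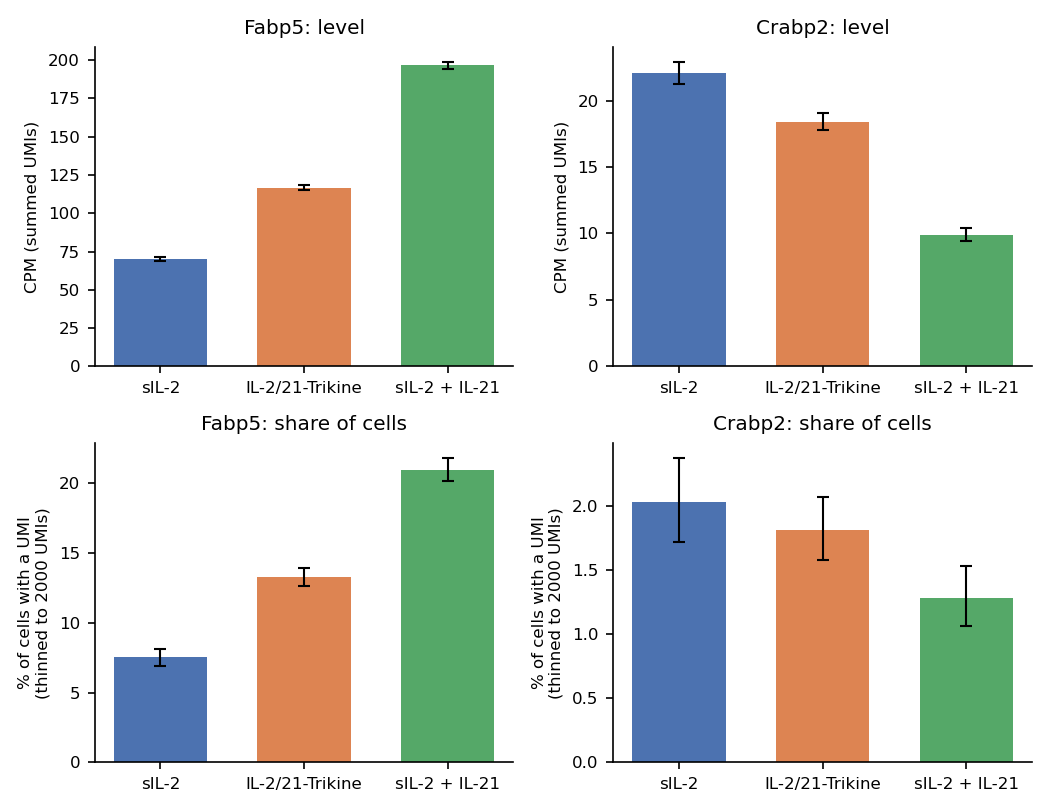
Levels (top, CPM of UMIs summed over a library) and shares of cells with a UMI after each cell was thinned to 2000 UMIs (bottom, percent) of Fabp5 and Crabp2 in the 3 libraries, with exact 95% intervals of counting error. Fabp5 ranges from 70.0 to 196 CPM and is highest in sIL-2 + IL-21, and Crabp2 ranges from 22.1 to 9.91 CPM and is lowest there.

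For IL-2/21-Trikine over sIL-2, the log2 ratio was 0.74 for Fabp5 (0.70 to 0.77) and -0.26 for Crabp2 (-0.33 to -0.19). Past a log2 ratio of 0.5 upward lay 2.88% of the 8824 genes with a mean of at least 5 CPM, Fabp5 among them (8.69% in either direction), and 82 of those genes had a higher ratio than Fabp5. Crabp2 did not pass 0.5 in either direction. The median of all genes was -0.08.

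For IL-2/21-Trikine over sIL-2 + IL-21, the log2 ratio was -0.75 for Fabp5 (-0.78 to -0.73) and 0.89 for Crabp2 (0.81 to 0.98). In this pair 3.58% of genes passed 0.5 downward and 3.51% upward, 7.09% in all, with 154 genes below Fabp5 and 83 above Crabp2. Between the libraries without Trikine, with sIL-2 divided by sIL-2 + IL-21, the log2 ratio was -1.49 for Fabp5 (-1.52 to -1.45) and 1.15 for Crabp2 (1.07 to 1.24), where 5.79% of genes passed 0.5 downward and 10.1% upward, 15.9% in all. Only 12 of 8824 genes had a lower ratio than Fabp5 there. These comparisons share libraries and are not independent of each other.

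Within a library, UMIs of Fabp5 per UMI of Crabp2 numbered 3.18 in sIL-2 (3.04 to 3.31), 6.34 in IL-2/21-Trikine (6.10 to 6.58) and 19.8 in sIL-2 + IL-21 (18.9 to 20.8). The counts are not scaled by transcript length, so this quotient is read across libraries and not as the abundance of the proteins' messages relative to each other. It sums UMIs over all cells of a library and is not a balance within cells. The early activated-like cluster 3, described below, held 68.7% of all Crabp2 UMIs. There Fabp5 had 1487, 3595 and 1341 UMIs and Crabp2 1738, 2288 and 1203, so the quotient was highest in IL-2/21-Trikine.

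The share of cells followed the level for Fabp5. With every cell thinned to 2000 UMIs, which left out 266, 1775 and 364 shallower cells, a Fabp5 UMI was found in 7.53% of cells in sIL-2 (6.94 to 8.15), 13.3% in IL-2/21-Trikine (12.7 to 13.9) and 20.9% in sIL-2 + IL-21 (20.1 to 21.8). Without thinning, the shares were 32.2%, 40.5% and 55.9%. Cells with at least 10 Fabp5 UMIs made up 2.15%, 2.93% and 11.3% of the libraries, and the 10% of cells with the most Fabp5 UMIs held 71.3%, 62.3% and 55.5% of them. Fabp5 UMIs were thus spread over more cells in sIL-2 + IL-21 than in the other libraries.

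Crabp2 was found in few cells of any library. After thinning, 2.03% of cells in sIL-2 (1.72 to 2.37), 1.81% in IL-2/21-Trikine (1.58 to 2.07) and 1.28% in sIL-2 + IL-21 (1.07 to 1.53) had a UMI, and the intervals of sIL-2 and IL-2/21-Trikine overlapped. Without thinning, the shares were 6.01%, 4.77% and 3.60%. The 1% of cells with the most Crabp2 UMIs held 59.3%, 64.1% and 71.2% of them, and the highest cell of each library had 71, 46 and 39. High counts of Crabp2 were thus confined to a small part of the positive cells. The median positive cell had 3, 2 and 2 UMIs, and 38.2%, 41.0% and 40.2% of positive cells had 1. As a background, in the stem-like cluster described next, 0.180% (2 of 1114), 0.142% (3 of 2117) and 0 of 1015 thinned cells had a Crabp2 UMI, and that count of 0 leaves room for at most 0.363% of cells with a detected UMI at this depth, which is no limit on cells that express the gene. In that cluster 2.51%, 4.02% and 4.04% had a Fabp5 UMI. Its cells had a median of 7092 UMIs before thinning over the 3 libraries, against 11442 in the early activated-like cluster, where 8.70% had a Crabp2 UMI.

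Cells were grouped into 17 clusters without using Fabp5, Crabp2, the class markers or the genes of the lipid lists. A class name was given only where its markers were raised and at least 1 was among the 10 leading genes, more than of any other class. These are not the study's clusters. Clusters 12 and 13 had only 1 such marker among their leading genes, and in cluster 13 the mean log2 ratio of the markers was 0.60. Clusters 5, 7 and 12 were proliferating-like, 2 stem-like, 3 and 13 early activated-like, 6 terminal cytotoxic-like and 11 ISG-like (interferon-stimulated genes). Clusters 15 and 16, with 100 and 55 cells, were myeloid-like and melanoma-like, 9, 10, 16 and 17 had low depth, and the others stayed unnamed.

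Among T cell clusters, Fabp5 was highest in cluster 7, led by histone genes, Rrm2 and Cdk1, with 175 CPM in sIL-2 (165 to 185), 221 CPM in IL-2/21-Trikine (210.2 to 233) and 321 CPM in sIL-2 + IL-21 (316 to 327). This cluster held 25.2% of all Fabp5 UMIs and 11.5% of all UMIs. The only exception to its lead was cluster 14, led by the heat shock genes Hspa1a and Hspb1, with 104 and 101 CPM in the first 2 libraries and 343 CPM (329 to 357) in sIL-2 + IL-21. Fabp5 in the terminal cytotoxic-like cluster 6 was at 98.7, 151 and 218 CPM. Levels were lowest in the stem-like cluster 2, at 18.2, 28.6 and 30.1 CPM, and in the ISG-like cluster 11, at 13.8, 25.7 and 29.9 CPM, whose intervals overlapped each other in every library. In sIL-2, clusters 5, 14, 3 and 6 lay between 98.7 and 112 CPM with overlapping neighbors.

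The highest Fabp5 levels of all were outside the T cell clusters. The myeloid-like cluster had 1670.1, 811 and 656 CPM over 22, 61 and 17 cells, and the melanoma-like cluster 1264, 890 and 1020.4 CPM over 16, 28 and 11 cells. The myeloid-like cells held 6.73%, 6.66% and 0.875% of the Fabp5 UMIs of their libraries and included the cells with the most Fabp5 UMIs in sIL-2 (205) and IL-2/21-Trikine (124). Without both clusters, an alternative chosen after seeing the data, the log2 ratios of Fabp5 were 0.75 for IL-2/21-Trikine over sIL-2, -0.84 for IL-2/21-Trikine over sIL-2 + IL-21 and -1.59 between the libraries without Trikine.

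Crabp2 had a narrower distribution. The early activated-like cluster 3, led by Il3, Il2, Ccl3 and Xcl1, was at 119.5 CPM in sIL-2 (114 to 125), 92.8 CPM in IL-2/21-Trikine (89.1 to 96.7) and 124 CPM in sIL-2 + IL-21 (117 to 131). It held 68.7% of all Crabp2 UMIs, against 10.5% of all UMIs, and 60.5%, 74.5% and 72.3% of those in each library. The interval of cluster 3 lay above that of every other cluster with at least 50 cells in each library. The early activated-like cluster 13 was at 33.2, 11.7 and 10.2 CPM, the unnamed cluster 4, led by Egr3 and Nr4a1, at 18.0, 17.7 and 10.1 CPM, the heat shock cluster 14 at 19.8, 3.54 and 0.143 CPM, and the proliferating-like cluster 5 at 16.9, 7.46 and 9.11 CPM. In IL-2/21-Trikine, low-depth cluster 10 (12.0 CPM), the myeloid-like cluster (14.4 CPM) and the melanoma-like cluster (34.2 CPM, from 8 UMIs in 28 cells) lay above cluster 13. Their intervals all overlapped that of cluster 13. In cluster 7, where Fabp5 was high, Crabp2 was at 4.68, 1.98 and 1.02 CPM. In clusters 1 and 2 it was at or below 0.801 CPM in every library.

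**Figure D2:**
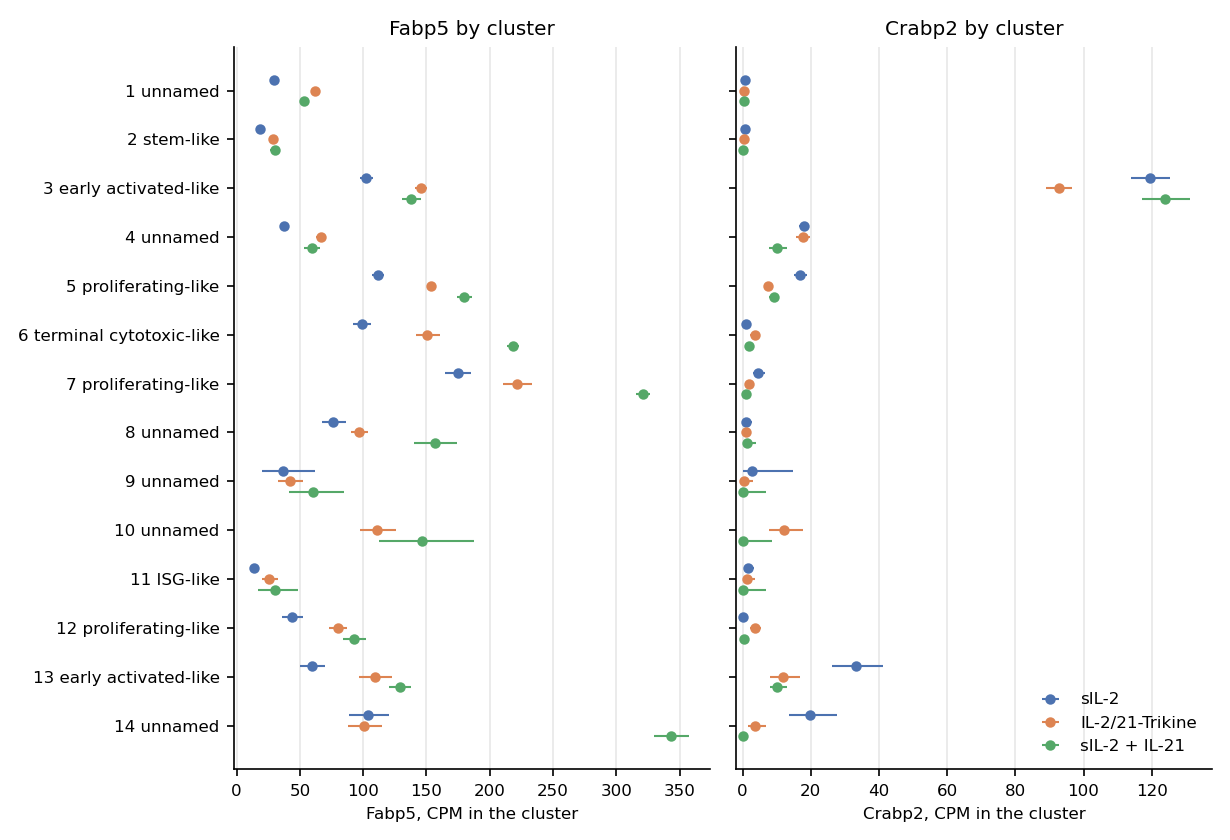
CPM of Fabp5 (left) and Crabp2 (right) in clusters 1 to 14 by library, with exact 95% intervals of counting error, for clusters with at least 50 cells in a library. Fabp5 is spread over many clusters and reaches 321 CPM in cluster 7 and 343 CPM in cluster 14 of sIL-2 + IL-21, whereas Crabp2 is at 92.8 to 124 CPM in cluster 3 and next highest at 33.2 CPM, in cluster 13 of sIL-2.

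Within clusters, Fabp5 kept its low level in sIL-2. It was higher in IL-2/21-Trikine than in sIL-2, by an interval clear of 0, in 11 of 13 clusters with enough cells and lower in 0 of them, with a median log2 ratio of 0.61. It was lower in sIL-2 than in sIL-2 + IL-21 in 12 of 13, with a median of -0.88. The other libraries were less separate from each other: Fabp5 was lower in IL-2/21-Trikine in 7 of 14 clusters, among them the proliferating-like and terminal cytotoxic-like ones, higher in 1 (cluster 1, 0.21) and within the interval of 0 in 6, among them the stem-like cluster 2 (-0.07) and the early activated-like cluster 3 (0.08).

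With the cluster make-up of the libraries held equal, Fabp5 stood at 89.0, 120.1 and 148 CPM, so the log2 ratios came closer to 0, at 0.43 for IL-2/21-Trikine over sIL-2, -0.30 for IL-2/21-Trikine over sIL-2 + IL-21 and -0.73 between the libraries without Trikine. The order of libraries was the same. The myeloid-like cluster, at 1670.1 CPM over 22 cells in sIL-2, was kept in these values, and its part in the move was not tested. Crabp2 stood at 20.1, 14.9 and 16.8 CPM, and its ratio of IL-2/21-Trikine over sIL-2 + IL-21 turned from 0.89 to -0.17. That between the libraries without Trikine went from 1.15 to 0.26, and that of IL-2/21-Trikine over sIL-2 from -0.26 to -0.44. With each cell weighted equally, Crabp2 was at 0.44 against sIL-2 + IL-21 in IL-2/21-Trikine and at 0.62 in sIL-2. In cluster 3 alone the log2 ratio of IL-2/21-Trikine over sIL-2 + IL-21 was -0.42 (-0.52 to -0.31), and that of sIL-2 over the latter was -0.05 (-0.16 to 0.05). In only some of the other clusters was the low level of sIL-2 + IL-21 seen. Crabp2 was higher in sIL-2 than in sIL-2 + IL-21, by an interval clear of 0, in 5 of 10 clusters (4, 5, 7, 13 and 14). It was lower in 0, with log2 ratios of 0.83 in cluster 4 (0.46 to 1.24) and 0.89 in cluster 5 (0.63 to 1.16). In IL-2/21-Trikine Crabp2 was higher than in sIL-2 + IL-21 in 5 of 13 clusters (4, 6, 10, 12 and 14) and lower in 2 (3 and 5). Against sIL-2, Crabp2 in IL-2/21-Trikine was higher in 2 of 12 and lower in 5. Clusters 10 and 14 had at most 1 Crabp2 UMI in sIL-2 + IL-21. Some of these counts came from few cells, which the intervals do not take into account. In sIL-2, cluster 14 had 33 Crabp2 UMIs in 4 cells and cluster 7 had 31 in 6 cells. In IL-2/21-Trikine, cluster 12 had 22 in 3 cells and cluster 6 had 24 in 8 cells.

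Levels of both members differed between cells with and without UMIs of proliferation markers. In cells thinned to 2000 UMIs and split by the UMIs of the 10 proliferation markers, Fabp5 in cells with 0 such UMIs was at 42.0 CPM in sIL-2 (38.1 to 46.2), 70.4 in IL-2/21-Trikine (65.7 to 75.3) and 76.4 in sIL-2 + IL-21 (70.3 to 82.9). In cells with 1 to 2 such UMIs it was at 43.2, 80.3 and 125 CPM, and in cells with 3 or more at 94.2, 129 and 230.4 CPM. In cells without these UMIs, sIL-2 lay below both other libraries, whose intervals overlapped. Crabp2 in cells with 0 marker UMIs was at 15.5 (13.2 to 18.2), 16.7 (14.5 to 19.2) and 17.0 CPM (14.2 to 20.2), all overlapping. In cells with 1 to 2 it was at 23.4 (18.3 to 29.6), 14.6 (11.5 to 18.3) and 8.39 CPM (5.94 to 11.5), higher than at 0 in sIL-2 and lower in sIL-2 + IL-21, and the intervals of those libraries lay clear of each other. In sIL-2 the interval at 1 to 2, from 70 UMIs, began just above the end of that at 0. These intervals do not take into account that Crabp2 UMIs lie in few cells. In cells with 3 or more Crabp2 was at 7.89, 6.49 and 3.88 CPM, from 16, 37 and 26 UMIs. Such cells made up 13.5%, 24.7% and 35.5% of the libraries. The part that proliferation has in the differences was not tested.

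**Figure D3:**
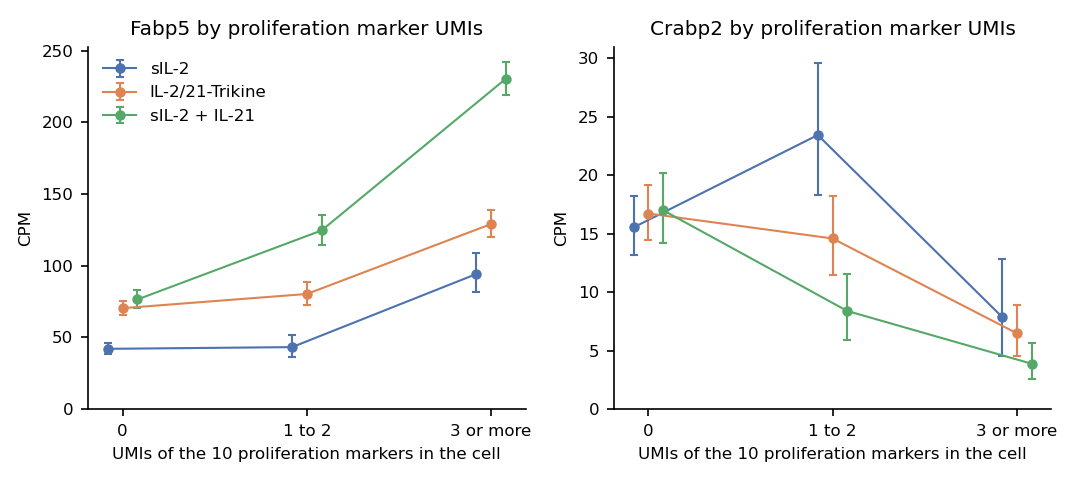
CPM of Fabp5 (left) and Crabp2 (right) in cells thinned to 2000 UMIs, by the number of UMIs of 10 proliferation markers in the cell and by library, with exact 95% intervals of counting error. Fabp5 is at 42.0 to 76.4 CPM at 0 marker UMIs and at 94.2 to 230.4 CPM at 3 or more, and Crabp2 overlaps between libraries at 0 marker UMIs but is at 23.4, 14.6 and 8.39 CPM at 1 to 2.

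Depth per cell moved with Fabp5 too. With all cells ranked by UMIs and cut into 4 equal bins, Fabp5 was at 24.6, 48.1 and 50.9 CPM in the shallowest bin (500 to 7437 UMIs) and at 96.7, 169 and 271 CPM in the deepest (19569 to 119321). In each bin sIL-2 was below both other libraries. In bin 2 Fabp5 was at 65.7 CPM in IL-2/21-Trikine (62.9 to 68.6) and 59.8 CPM in sIL-2 + IL-21 (56.5 to 63.2), the reverse of their order in the whole libraries, with overlapping intervals. For Crabp2, the order of the libraries differed by bin: in bin 2, sIL-2 was lowest at 3.76 CPM against 10.8 and 14.5, and in the deepest, sIL-2 was highest at 28.8 CPM against 20.3 and 6.70. The part that depth has in these differences was not tested.

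The genes most like Fabp5 across cells were named by Pearson r on log(1 + UMIs per 10000), ranked by the lowest r of the 3 libraries, among 8856 genes found in at least 5% of cells of each. All cells of a library share its preparation, and r also carries differences in depth between cells. The first 10 were Ranbp1 (r of 0.41, 0.41 and 0.53), Ran (0.43, 0.40 and 0.55), C1qbp, Nme1, Ppp1r14b, Eif5a, Snrpd1, Pa2g4, Hspd1 and Prmt1, with r of 0.35 to 0.55. Ran and Ranbp1 act in nuclear transport, C1qbp and Hspd1 in mitochondria, Nme1 in nucleotide supply, Eif5a in translation, Snrpd1 in splicing, Pa2g4 in growth and ribosome assembly, and Prmt1 in arginine methylation. In cells thinned to 5000 UMIs, Ran was at 913, 1063 and 1156 CPM in cells with a Fabp5 UMI and at 484, 658 and 653 CPM in those without. Hspd1 was at 472, 554 and 424 CPM against 230.4, 321 and 241 CPM.

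The 5 genes with the most negative r were Malat1 (-0.39, -0.29 and -0.49), a nuclear noncoding RNA, Arhgap15, Gramd3, Btg1, an antiproliferative gene, and Ptprc, which encodes CD45. Btg1 was at 682, 646 and 397 CPM in cells with a Fabp5 UMI and at 1088, 1054 and 821 CPM in those without. With values centered within clusters, 9 of the 10 highest genes were shared with those named, and without proliferating-like and low-depth clusters 8 were shared. In cells thinned to 2000 UMIs 4 were shared, with Ptma and Hsp90aa1 among those that entered.

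Crabp2 went with a different set. Its first 10 genes were Ccl9 (r of 0.31, 0.34 and 0.34), Xcl1 (0.34, 0.30 and 0.32), Ccl3, Ifng, Ccl1, Crtam, Srm, Eef1e1, Pno1 and Spry1, with r of 0.22 to 0.34. Ccl9, Xcl1, Ccl3 and Ccl1 encode chemokines, Ifng encodes interferon-γ, Crtam an adhesion receptor of activated T cells, Srm spermidine synthase, Pno1 a ribosome assembly factor, and Spry1 an inhibitor of receptor signaling. Most of these genes also led the early activated-like cluster 3. Hspd1, named above with Fabp5, entered the first 10 of Crabp2 in some alternatives, so the separation of the sets depends on the setting. These alternatives were cells thinned to 2000 UMIs, Spearman's rho in place of r, values centered within clusters, and cells without proliferating-like and low-depth clusters. In cells thinned to 5000 UMIs, Xcl1 was at 20750.2, 23443 and 33135 CPM in the 253, 335 and 188 cells with a Crabp2 UMI and at 3125, 3529 and 2586 CPM in those without. Ifng was at 4206, 3678 and 5493 CPM against 593, 443 and 542 CPM. The most negative r were those of Epsti1 (-0.24, -0.19 and -0.21), an interferon-responsive gene, Ifngr1, which encodes a chain of the interferon-γ receptor, AW112010, Tmsb10 and Ctla2a. Epsti1 was at 235, 207 and 143 CPM in cells with a Crabp2 UMI and at 856, 738 and 599 CPM in those without.

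**Figure D4:**
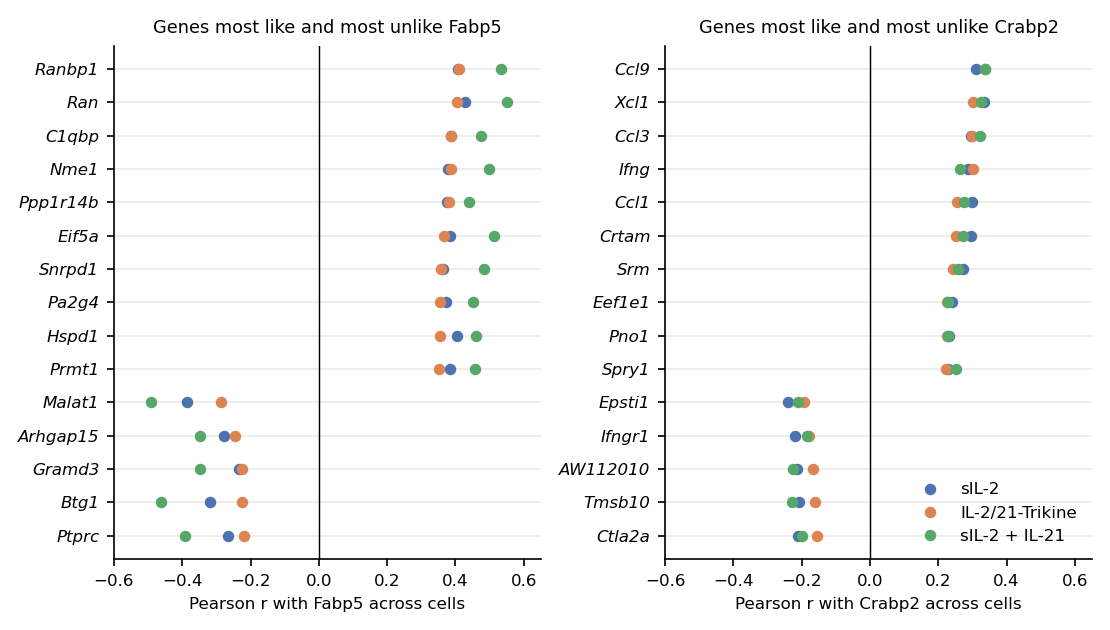
Pearson r across cells of each library with Fabp5 (left) and with Crabp2 (right), for the 10 genes with the highest and the 5 with the most negative r of each. The highest r lie between 0.35 and 0.55 for Fabp5 and between 0.22 and 0.34 for Crabp2. No gene is in both sets as drawn, though Hspd1 entered that of Crabp2 in some alternatives.

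Markers of cell classes were compared with the members in the same way. All 10 proliferation markers had a positive r with Fabp5 in the 3 libraries (0.11 to 0.47, Pclaf highest) and a negative r with Crabp2 (-0.08 to -0.00). The 6 early activation markers found in enough cells, Xcl1, Ccl3, Ccl4, Ifng, Csf2 and Tnf, had a positive r with Crabp2 (0.05 to 0.34), and 5 of them also with Fabp5 in every library. The 7 terminal cytotoxic markers found in enough cells had a positive r with Fabp5 (0.00 to 0.28, Gzmc highest). The median r over all genes compared was also positive with Fabp5, at 0.02, 0.03 and 0.03, and was 0.00, 0.00 and -0.01 with Crabp2. Some of these cytotoxic markers lay below that median of Fabp5 in sIL-2 and IL-2/21-Trikine. A positive sign with Fabp5 alone therefore does not set a marker apart from other genes. Of the 7 stem-like markers found in enough cells, Tcf7, Il7r, Lef1 and S1pr1 had a negative r with both members in the 3 libraries. Ccr7 (0.09, 0.03 and 0.06) and Slamf6 (0.02, 0.04 and 0.03) had a positive r with Crabp2, whereas with Fabp5 Ccr7 (0.05, 0.05 and -0.04), Slamf6 and Klf2 differed in sign between libraries. Many of these r are close to 0 in sparse counts and are given as signs only.

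The members were weakly related to each other, with r of 0.15 in sIL-2, 0.13 in IL-2/21-Trikine and 0.04 in sIL-2 + IL-21. Among cells thinned to 5000 UMIs, a Fabp5 UMI was found in 34.8% of Crabp2-positive cells in sIL-2 (28.9 to 41.0) against 15.2% of the others, in 51.9% in IL-2/21-Trikine (46.4 to 57.4) against 27.6%, and in 45.2% in sIL-2 + IL-21 (38.0 to 52.6) against 38.7%. Only in sIL-2 + IL-21 did the interval of the positive cells hold the share of the others. Within cluster 3 the shares were 38.9% (31.1 to 47.2) against 29.5%, 54.0% (47.6 to 60.2) against 39.6% and 43.5% (35.1 to 52.2) against 38.7%. Thinned to 2000 UMIs, they were 13.3% (7.08 to 22.1) against 14.7%, 27.6% (20.7 to 35.5) against 20.1% and 23.0% (14.6 to 33.2) against 21.1%. The reversed direction in sIL-2 came from 12 cells with both UMIs, and the interval held the share of the others. Thinned to 1000 UMIs, the shares in sIL-2 were 15.2% (6.34 to 28.9) against 8.15%. These came from 7 cells with both UMIs, and the interval again held the share of the others. The part of depth in these shares was not tested. Cells with a UMI of both genes numbered 88, 174 and 85 in the libraries thinned to 5000 UMIs.

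Of their own families the members were the main ones detected. The 9 other fatty acid-binding proteins were below 1 CPM in every library, the highest being Fabp4 with 33, 95 and 57 UMIs (0.253, 0.570 and 0.339 CPM) and Fabp12 (0.0845, 0.102 and 0.125 CPM). Fabp1, Fabp2, Fabp9 and Pmp2 had 0 UMIs. Of the cellular retinoid-binding proteins, Crabp1, Rbp2 and Rbp7 had at most 1 UMI in a library.

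Of the receptors the proteins deliver to, Rara was at 37.0 CPM in sIL-2, 22.9 in IL-2/21-Trikine and 26.0 in sIL-2 + IL-21, and Rxrb, a shared partner, at 12.7, 10.8 and 11.8 CPM. Ppard was at 13.9, 9.17 and 9.99 CPM and Pparg at 9.94, 4.56 and 6.97 CPM. Rara, Ppard and Pparg were highest in sIL-2 and lowest in IL-2/21-Trikine, an order that neither member had in the whole libraries. With the cluster make-up held equal, Crabp2 had this order, at 20.1, 14.9 and 16.8 CPM. The receptors were not put on that footing, so these orders are not compared like for like. Rarb had 12, 12 and 1 UMIs and Ppara 1, 4 and 4. Of 15 genes of retinoid metabolism only Rdh11 reached a mean of 5 CPM, at 11.1, 10.9 and 11.7 CPM, with Rdh10 next at 4.52, 3.99 and 4.37 CPM. Both encode retinol dehydrogenases, and the retinoic acid-degrading Cyp26a1, Cyp26b1 and Cyp26c1 had at most 6 UMIs in a library.

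The 11 lists held 84 genes, of which 32 reached the mean of 5 CPM. For IL-2/21-Trikine over sIL-2, 0 of the 32 passed a log2 ratio of 0.5 upward and 8 downward, where 5.81% of all genes passed downward. Their median was -0.14 against -0.08 over all genes. The 8 were Hilpda (-1.05), Pparg (-1.12), Rara (-0.69), Ppard (-0.60), Plin2 (-0.74), Cpt1a (-0.60), Slc25a20 (-0.56) and Itgb7 (-0.57). Hilpda encodes an inhibitor of lipid droplet breakdown, Pparg, Rara and Ppard encode receptors, and Plin2, Cpt1a and Slc25a20 are PPARδ targets. Itgb7, an integrin chain of gut-homing T cells, was listed here as induced by retinoic acid. With scaling by trimmed means (TMM), which shifted all genes by 0.10 in this pair, Itgb7, Ppard and Slc25a20 no longer passed and 5 remained. List genes were not compared with the cluster make-up held equal, and its part in their ratios was not tested.

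For IL-2/21-Trikine over sIL-2 + IL-21, 0 passed upward, where 3.51% of all genes did. Pparg (-0.61), Hilpda (-0.53) and Plin2 (-0.51) were among those that passed downward, where 3.58% of all genes did. The median was -0.14 against 0.00 over all genes. Between the libraries without Trikine, 3 of the 32 passed upward (Hilpda, Pparg and Rara, each at 0.51). This was close to the 10.1% of all genes that did. The median was 0.07 against 0.08 over all genes. With TMM scaling none passed upward there. The 12 measured genes of fatty acid oxidation lay between -0.60 and 0.32 in the 3 comparisons, and the known partners of Crabp2 did not pass 0.5, with Ccnd3 at 125, 111 and 93.5 CPM and Elavl1 at 110.0, 117 and 112 CPM.

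**Figure D5:**
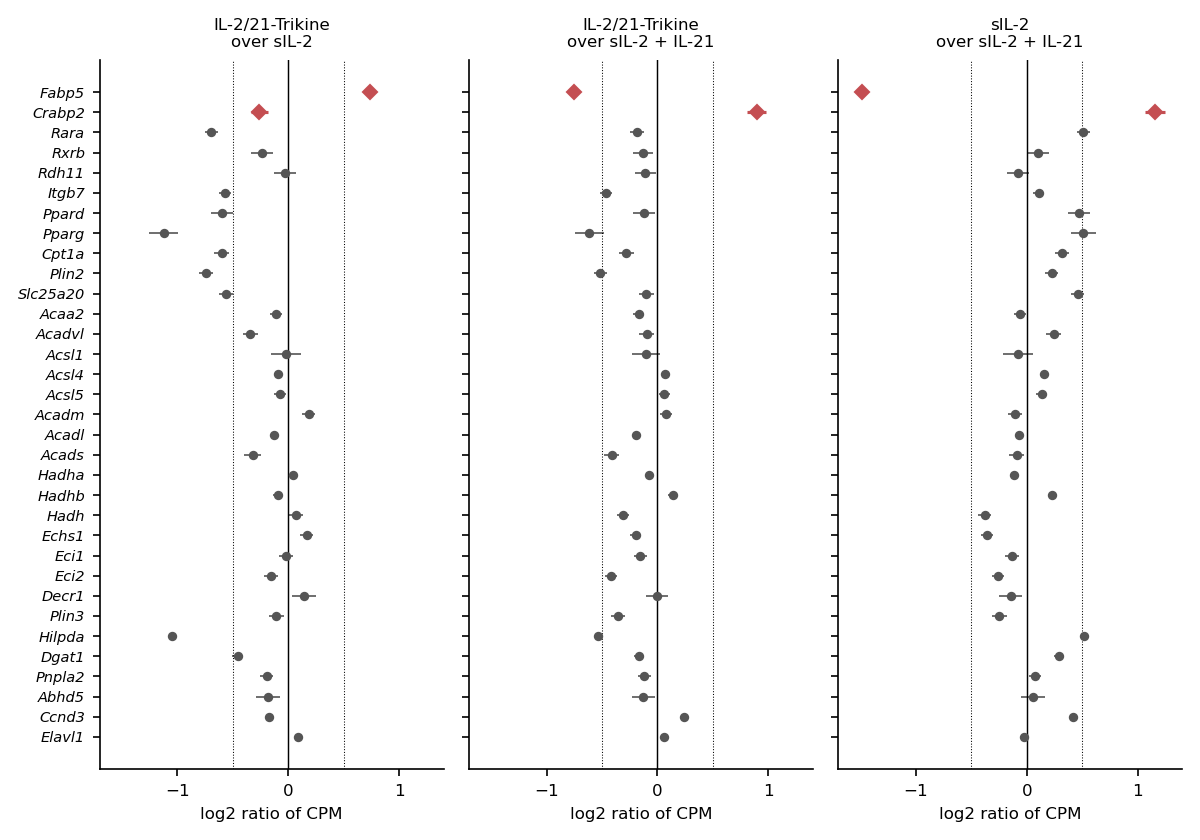
Log2 ratios of CPM between pairs of libraries for Fabp5 and Crabp2 (red diamonds) and 31 list genes with a mean of at least 5 CPM (grey circles), with exact 95% intervals of counting error and dotted lines at 0.5 in each direction. In these values of whole libraries, the members lie on opposite sides of 0 in each pair. Of the list genes drawn, 8 and 3 lie past 0.5 downward in the first 2 pairs and 3 upward in the last. Over all genes those shares are 5.81%, 3.58% and 10.1%.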

How the data were processed

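Single cells were sequenced with 10x 3' gene expression v3.1 chemistry. The deposited values are UMI counts of each gene in each called cell, which the authors made without normalization, by Cell Ranger (version 9.0.0 in the file headers). The methods name a GRCm39 reference, whereas the submitters' processing notes name mm10, so no coordinates are given. The mouse genome holds near-identical processed copies of Fabp5, and how reads that match several copies were counted is not given in the sources used here, so its counts are uncertain to that extent. The number of mice per library was not given in the sources used here.

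Cells with 500 to 120000 UMIs and at most 20% mitochondrial UMIs were kept. UMIs were summed per library or cluster and scaled to CPM, with exact Poisson and conditional binomial intervals. Depth was 130200802 to 168041089 UMIs per library, and UMIs of the rarer member numbered 1665 to 3070. Clusters came from 2000 variable genes, 50 principal components, 20 neighbors and Leiden clustering (resolution 1) without correction for library. A cluster was named where the markers of a class had a mean log2 ratio of at least 0.5 over other cells and at least 3 were raised. At least 1 of them, more than of any other class, had to be among its 10 leading genes. At least 10% of its cells had to have 2 of them. These naming conditions were chosen after seeing the data. Scrublet called 4, 1576 and 5 cells, too few in 2 libraries to have worked, so calls were not used and doublets were kept, with removal of the 5% highest scores as an alternative.

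The members, gene lists, markers and rule for named genes were chosen with earlier results of these data known. Named were, for each member, the 10 genes with the highest r and the 5 with the most negative, list genes past a log2 ratio of 0.5 at a mean of 5 CPM and otherwise the 2 highest of a list, leading genes to identify clusters, and, outside the rule and after their values were seen, class markers, Ptma, Hsp90aa1, Rxrb and list genes with few UMIs. Some marker and list genes that the rule covers are not reported here, though they stay in the counts and medians of their lists. No test between libraries was made. Ratios, intervals, thinning and the ranking by r were tested on simulated data. Clustering, cluster naming, doublet scores and the equal make-up were not. Alternatives covered scaling, weight and limits of cells, doublets, make-up, thinning, the measure of likeness, resolution and the floor on CPM. Python 3.11.15, numpy 2.4.6, scipy 1.17.1, pandas 2.3.3, scanpy 1.11.5, igraph 0.11.9, leidenalg 0.10.2, matplotlib 3.10.9, R 4.3.3 and edgeR 4.0.16 (TMM factors only) were used.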

Additional observations from a re-analysis of the deposited data

How the results depend on the processing

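No paired analysis was possible because each group is 1 library and no test was made. Across 8 alternatives, 2 of them chosen after seeing the data, Fabp5 kept its direction in the 3 pairs of libraries and Crabp2 in 2 of them. The exception was the cluster make-up held equal, where the log2 ratio of Crabp2 for IL-2/21-Trikine over sIL-2 + IL-21 turned to -0.17. In the order IL-2/21-Trikine over sIL-2, IL-2/21-Trikine over sIL-2 + IL-21 and sIL-2 over sIL-2 + IL-21, that alternative gave 0.43, -0.30 and -0.73 for Fabp5, and for Crabp2 -0.44 in the first pair and 0.26 in the last. With each cell weighted equally the values were 0.79, -0.62 and -1.40 for Fabp5 and -0.18, 0.44 and 0.62 for Crabp2. TMM scaling gave 0.84 and -1.59 for Fabp5 and -0.16 and 1.05 for Crabp2 in the first and last pairs. With no limit on cells Fabp5 was at 0.65 and -1.39 in those pairs, and without the myeloid-like and melanoma-like clusters at -0.84 and -1.59 in the last 2. The other 28 values moved by less than the counting interval. Of the 10 genes most like Crabp2, 6 were shared in cells thinned to 2000 UMIs and 8 with Spearman's rho, and of those most like Fabp5, 4 and 6. At resolutions 0.5 and 1.5 the T cell cluster highest in Crabp2 was early activated-like (113 and 116 CPM), whereas that highest in Fabp5 was led by heat shock genes at 0.5 (266 CPM) and by histone genes at 1.5 (267 CPM). Crabp2 is limited by its low counts outside cluster 3.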
